A study of Drosophila melanogaster with 18 samples.

Results

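The response to shep RNAi that neurons of both developmental stages had in common was measured as 1 contrast. The mean log2 level of the pupal and larval RNAi groups was set against the mean of the pupal and larval control groups, with the 4 group means in the model. All 12 neuron libraries of the 18 in the series entered it, 6 with RNAi and 6 without, chosen by their labels alone. Each stage thus had equal weight, and a gene that changed at 1 stage entered the average with about 0.5 of its change.

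The neurons were sorted alive from Drosophila melanogaster. The RNAi groups were P14 (late pupal) animals and larvae of the third instar in which elav drove shep-RNAi, Dcr (which enhances RNAi) and the membrane label mCD8::GFP, with 3 libraries a stage. The control groups, also with 3 libraries at each stage, carried elav-driven Dcr and mCD8::GFP but no RNAi transgene. A difference made by the extra transgene or its genetic background therefore cannot be told apart from one made by less shep. The elav driver acts in neurons, so shep was targeted there, and its level in other tissues of the animals was not measured. BG3 cells, a line from the larval nervous system given dsRNA, double-stranded RNA that triggers RNAi, against shep or GFP, gave 6 further libraries that share no sample with the contrast. The labels do not say whether replicates came from separate animals, so the p-values reflect only how these libraries vary, which may be technical.

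The product of shep (alan shepard) binds RNA and also limits the activity of chromatin insulators, the DNA-bound complexes that separate regulatory domains. In neurons it is known for its part in the remodelling of the nervous system during metamorphosis. RNAi lowers the transcript of its target, so the level of shep itself shows how far each library was depleted.

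Levels are given as CPM, counts scaled to the TMM-adjusted library size. shep (FBgn0052423, arm 3L, minus strand, 5155821 to 5277944 of dm6) had 1148, 908 and 923 CPM in pupal RNAi neurons, against 1665, 2012 and 1956 CPM in pupal controls. In larval neurons it had 505, 458 and 488 CPM with RNAi, against 1200, 1333 and 1402 CPM in controls. No RNAi library reached any control library of its stage. Averaged over stages, shep changed by -1.18 on the log2 scale (SE 0.07, edgeR quasi-likelihood adjusted p = 1.88e-10), which is 55.8% less transcript. An exact 2-sided permutation test within stages gave p = 0.005, the smallest that 400 arrangements allow. The transcript was 47.1% lower in pupae and 63.1% lower in larvae, so the contrast describes a partial loss of shep.

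**Figure D1:**
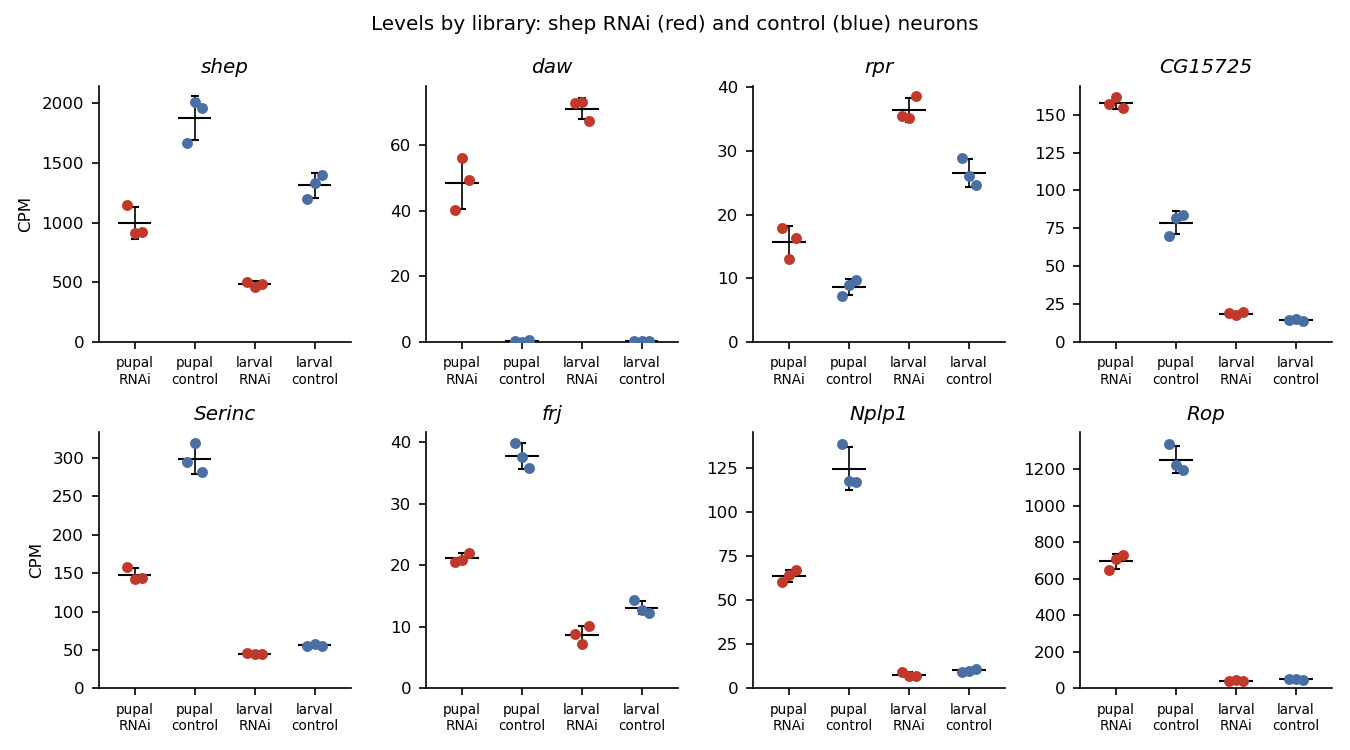
Level in CPM (y axis) of 8 genes in each neuron library, with RNAi left of control at each stage. Points are libraries, lines are means and bars are SD (n = 3); in all 8 genes the 3 RNAi libraries lie on one side of the 3 controls at both stages, and daw is near 0 CPM in controls. For genes named as largest rises or falls, this separation was a condition of being named.

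Total counts per library lay between 7392299 and 10607171 for pupal RNAi, 9134690 and 10793289 for larval RNAi, 8548493 and 9445025 for pupal control, and 9984725 and 12910603 for larval control. Stage held 93.2% of the variance, on the first principal component. Once stage means were removed, the first component held 22% and placed all 6 RNAi libraries on one side of 0 and all 6 control libraries on the other. The neuronal gene elav (0.15, adjusted p = 0.165), the synaptic vesicle gene nSyb (-0.18, adjusted p = 0.166), the glial gene repo (-0.45, adjusted p = 0.463), Dcr-2 (-0.04, adjusted p = 0.825) and the dosage compensation RNA roX1 (0.01, adjusted p = 0.986) did not pass edgeR's test. roX2 fell under the filter on low counts. The eye pigment gene w was higher on RNAi (0.29, adjusted p = 0.00891), with a log2 fold change of 0.13 in pupae and 0.46 in larvae. Gene counts do not separate the endogenous w gene from a copy on a transgene.

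Many genes differed by small amounts in the averaged contrast. Of the 8784 genes, 635 (7.23%) were called by edgeR at an adjusted p under 0.05. On RNAi 324 were higher (3.69% of those tested) and 311 lower (3.54%). The median size of their log2 fold changes was 0.32, and 517 of them (81.4%) changed by less than 0.5, against a median size of 0.13 over all tested genes. At least 2-fold changes were found in 24 higher and 7 lower genes, of which 27 had a mean under 5 CPM. The number of calls depended on single libraries. Omitting pupal RNAi replicate 1 left 371, omitting larval RNAi replicate 2 left 373, omitting pupal control replicate 3 left 398 and omitting larval RNAi replicate 3 left 420, and 261 genes (41.1%) were called in all 12 such fits. An unadjusted p under 0.05 was reached by 1887 genes.

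Most called genes changed more in pupae, although nearly all had the same sign at both stages. The sign matched in 616 of the 635 (97.0%), against 57.6% of the genes that were not called. A gene with opposite signs is less likely to give an average far from 0, so this share is partly set by the contrast. The median size of the log2 fold change among the called genes was 0.44 in pupae and 0.20 in larvae. The pupal value was the larger in 527 of them (83.0%), against 67.4% of all tested genes. An unadjusted p under 0.05 at each stage, with the same sign, held for 258 called genes (40.6%), 128 higher and 130 lower. The RNAi and control libraries did not overlap at either stage in 370 tested genes (4.21%; 1.87% higher and 2.35% lower), and 262 of these were called.

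**Figure D2:**
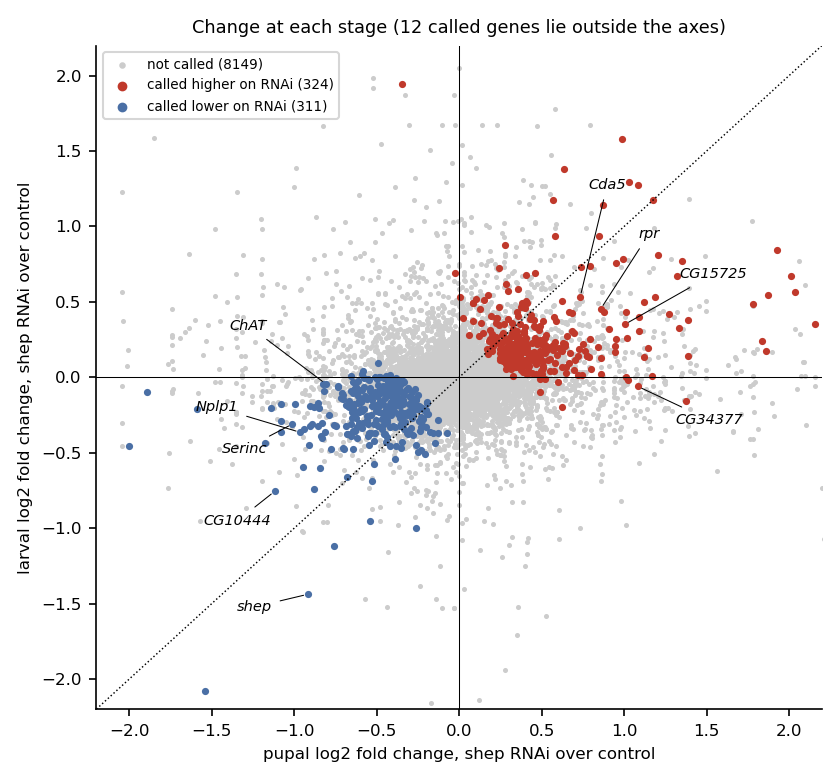
Log2 fold change of shep RNAi over control in pupal (x axis) and larval (y axis) neurons for each tested gene, with genes called in the average in red (higher) and blue (lower). The dotted line marks equal change; most called genes lie nearer the pupal axis, 12 called genes lie outside the axes, and the colours follow from the average of both axes.

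The average also called genes that neither stage called alone. Of the 635 genes, 438 were also called in pupae, where 672 genes passed (7.65%), and 28 in larvae, where 32 passed (0.364%). The other 181 genes, 107 higher and 74 lower, passed only when both stages were averaged. The examples below, chosen after their values were seen, had small but not the smallest p values, and like changes at both stages. Of those with smaller p, some were less alike, such as lncRNA:CR42861 (0.57 in pupae and 1.17 in larvae) and GalT1 (-0.26 and -0.45). Others were alike, such as Sptz (0.38 and 0.47). Sarm, which encodes an enzyme of axon degeneration, was higher by 0.43 on the log2 scale (0.39 in pupae and 0.47 in larvae; adjusted p = 0.00748). It had 27.0, 25.4 and 22.4 CPM in pupal RNAi and 24.5, 24.8 and 18.3 CPM in larval RNAi libraries, against 18.5, 22.9 and 15.9 CPM in pupal control and 16.8, 16.3 and 15.9 CPM in larval control libraries. Its groups overlapped in pupae and not in larvae. miple1, which encodes a secreted growth factor of the midkine family, was lower by a similar amount at both stages (average -0.27, pupal -0.23, larval -0.31; adjusted p = 0.00668). The diphthamide synthesis gene Dph1 had -0.44, with -0.42 in pupae and -0.46 in larvae.

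Genes called in the average and at each stage numbered 12. They were daw, ftz, bark and CG30419, which were higher, and shep, nompA, lncRNA:CR45625, dachs, CG10444, frj, Atox1 and lute, which were lower. The largest change after daw was in nompA (-4.04), which encodes an extracellular protein that anchors mechanosensory dendrites. It had 0.12, 0 and 0.18 CPM in pupal RNAi and 0.14, 0.26 and 0.08 CPM in larval RNAi libraries. Controls had 3.70, 3.41 and 2.33 CPM in pupae and 1.44, 1.95 and 1.30 CPM in larvae. ftz (3.72), a pair-rule homeobox gene, moved the other way at similarly low levels, with at most 5.81 CPM on RNAi and at most 0.86 CPM in controls. dachs (-2.22), an unconventional myosin gene of planar polarity, had 2.03, 1.79 and 1.26 CPM in larval RNAi libraries, against 8.63, 12.7 and 9.34 CPM in larval controls. nompA, ftz and dachs lie outside the naming rule on level and were chosen after their values were seen.

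daw (FBgn0031461, arm 2L, plus strand, 2805261 to 2812376), which encodes the activin-type ligand Dawdle, had by far the largest rise. It had 40.2, 56.0 and 49.2 CPM in pupal RNAi libraries, against 0.14, 0 and 0.69 CPM in pupal controls. In larvae it had 72.7, 73.2 and 67.3 CPM with RNAi, against 0.12, 0.23 and 0.14 CPM in controls. Over both stages the log2 fold change came to 8.03 (SE 0.19, edgeR's adjusted p = 5.63e-20, exact 2-sided permutation p = 0.005, the smallest possible). As daw was picked for its rise in these same libraries, the permutation p adds no separate support. Summed counts were 1009 with RNAi against 6 in controls in pupae, a ratio of 171 (95% interval 78.4 to 468), and 2697 with RNAi against 7 in controls in larvae, a ratio of 447 (217 to 1113). These intervals cover counting error only. In BG3 cells, where shep fell by 1.08 on the log2 scale, daw had a log2 fold change of 0.12 (adjusted p = 0.735). There daw was already expressed without shep dsRNA, at a mean of 25.0 CPM with GFP dsRNA against 27.3 CPM with shep dsRNA. The BG3 value is therefore not a like comparison with neurons, whose controls had at most 0.69 CPM.

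Genes next to daw were examined because the rise was so much larger than any other, and so were chosen after values were seen. Duox, a dual oxidase gene on the minus strand, was also higher on RNAi (1.00, SE 0.30, adjusted p = 0.0392). The end of Duox nearer to daw lies 3594 bases downstream and is where the Duox gene ends, so Duox starts further away. It had 1.87, 2.88 and 2.82 CPM in pupal RNAi and 0.70, 1.96 and 0.92 CPM in larval RNAi libraries, against 1.85, 1.14 and 1.1 CPM in pupal control and 0.40, 0.55 and 0.65 CPM in larval control libraries. The groups did not overlap, but the closest libraries nearly met at both stages, at 1.87 CPM with RNAi against 1.85 CPM in control in pupae and 0.70 CPM with RNAi against 0.65 CPM in control in larvae. G6P, the glucose-6-phosphatase gene 1960 bases downstream, had 0.46 (adjusted p = 0.0536), and Syt1, the synaptotagmin gene 5282 bases upstream, had 0.07 (adjusted p = 0.693). Bacc, 47286 bases upstream, was called higher as well (0.29, adjusted p = 0.0171), with 0.39 in pupae and 0.20 in larvae. Of the tested neighbours, out to Bacc upstream and CG2991 at 44788 bases downstream, only Duox and Bacc were called. Over all tested genes 7.23% were called. The insertion site of the RNAi transgene is not given in the available sources, and a local effect of it on daw cannot be told apart from an effect of less shep.

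Of 18 apoptosis genes tested 3 rose (rpr, hid and grim) and 0 fell in the average by edgeR, with a median of 0.05. The share called was 16.7%, against 7.23% of all tested genes. The list median was 0.16 in pupae and -0.003 in larvae. In larvae alone 1 member was called lower, and the stage difference was called for 1 member. rpr (FBgn0011706, arm 3L, 18397535 to 18398435), whose product blocks the inhibitors of caspases, had 17.8, 13 and 16.2 CPM in pupal RNAi libraries, against 7.25, 8.96 and 9.75 CPM in pupal controls. In larvae it had 35.4, 35.2 and 38.6 CPM with RNAi, against 28.9, 26 and 24.6 CPM in controls. The groups did not overlap at either stage, which was a condition for naming a gene among the largest rises. The average came to 0.66 on the log2 scale (SE 0.09; edgeR's adjusted p = 9.94e-05). hid (0.42, adjusted p = 0.00867) and grim (0.35, adjusted p = 0.0264), which act in the same way, were also higher, with values of 0.46 and 0.39 in pupae and 0.38 and 0.31 in larvae. The fourth such gene, skl, had 0.10 (adjusted p = 0.482). grim shares exon bases with 2 noncoding genes and lost its call in 6 of the 12 fits without 1 library (highest adjusted p 0.113), whereas rpr and hid lost theirs in 0. At an unadjusted p under 0.05, 3 members of the list were higher and 3 lower.

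CG15725 (arm X, 12705854 to 12708841) was the rise with the smallest p after daw. It had 157, 162 and 154 CPM in pupal RNAi and 18.8, 17.4 and 19.4 CPM in larval RNAi libraries, against 70.0, 81.8 and 84.1 CPM in pupal control and 14.7, 14.9 and 14.0 CPM in larval control libraries. On average it was higher by 0.68 on the log2 scale (SE 0.06; edgeR's adjusted p = 3.91e-07), and its pupal change exceeded the larval one by 0.65. CG30419 (0.56), the chitin deacetylase gene Cda5 (0.63), the zinc finger gene klu (0.55), which acts in neural stem cells, and asRNA:CR45009 (0.76) were other large rises. All of these genes were named by a rule that required no overlap at either stage, so the lack of overlap is not a finding. These rises kept their calls in every fit without 1 library, as did daw, CG15725 and rpr. asRNA:CR45009 shares 437 exon bases with FucTC on the other strand.

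The other 5 of the 12 largest rises each lost their call in at least 1 such fit. CrebA (0.85), a transcription factor gene of the secretory pathway, was lost without pupal RNAi replicate 1 (adjusted p = 0.0846). DCX-EMAP (1.28), which encodes a microtubule-binding protein of mechanosensory cells, was lost without larval RNAi replicate 1 (adjusted p = 0.106) or larval control replicate 1 (adjusted p = 0.0510). In larvae it had at most 0.70 CPM. Tis11 (0.70), which encodes a protein that destabilises mRNA, was lost without pupal RNAi replicate 1 or 3 or pupal control replicate 3, with adjusted p of 0.0588, 0.0773 and 0.113. CG15021 (0.85) and lncRNA:CR46125 (0.66) were lost in 4 and 8 of the 12 fits (highest adjusted p 0.0588 and 0.0686).

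Serinc (FBgn0028399, arm 3L, 16412722 to 16415386), which encodes a serine incorporator of membranes, had the smallest p among the falls after shep. It had 159, 142 and 143 CPM in pupal RNAi libraries, against 295, 319.6 and 282 CPM in pupal controls. In larvae it had 45.9, 45.3 and 44.7 CPM with RNAi, against 55.6, 57.9 and 55.0 CPM in controls. The groups stood apart at both stages, as the rule that named the largest falls required. The average was -0.66 on the log2 scale (SE 0.05; edgeR's adjusted p = 3.07e-08).

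Nplp1, a neuropeptide precursor gene, had 60.1, 64.0 and 67.0 CPM in pupal RNAi and 9.25, 7.17 and 6.88 CPM in larval RNAi libraries. Its controls had 138, 117 and 117 CPM in pupae and 9.38, 10 and 10.9 CPM in larvae (-0.66, SE 0.08, adjusted p = 1.75e-05). The same rule required no overlap at either stage. frj, which encodes an acyltransferase of membrane lipids, had an averaged log2 fold change of -0.72 (-0.84 in pupae and -0.60 in larvae; adjusted p = 1.44e-05). CG10444 (-0.94), FBgn0029173 (-0.80), CG15601 (-0.75), the protein phosphatase regulator gene sds22 (-0.68), the DNA repair helicase gene Fancm (-0.64) and the dipeptidase gene Dip-C (-0.62) fell too. These 8 and Serinc kept their calls in every fit without 1 library. The kinetochore gene Spindly (-1.23) lost its call in 9 of the 12 (highest adjusted p 0.142) and had at most 0.35 CPM in pupal RNAi and 0.69 CPM in pupal control libraries. icln (-0.90), a gene of spliceosomal particle assembly, was lost in 4 (highest adjusted p 0.115). Exons of Serinc, sds22, icln and Spindly overlap a gene on the other strand by 78 to 214 bases, and the strand setting of the counting is not given.

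Genes that acidify organelles and break down glucose were called lower in more than 0.5 of the members tested. Of 16 tested genes of the vacuolar ATPase, the proton pump of synaptic vesicles and lysosomes, 9 fell and 0 rose, with a median of -0.26. Over all tested genes the median was 0.00, with 3.54% lower. The catalytic subunit gene Vha68-1 (-0.39), its subunit gene VhaSFD (-0.41), and the accessory genes VhaAC45RP (-0.43) and ATP6AP2 (-0.39) had the smallest p values. The group median was -0.40 in pupae and -0.11 in larvae, and 4 of the 9 passed an unadjusted p of 0.05 at both stages. Of 12 glycolysis genes 7 fell and 0 rose, with a median of -0.28. Their median was -0.34 in pupae and -0.17 in larvae, and 3 of the 7 passed an unadjusted p of 0.05 at both stages. Pglym78 (phosphoglycerate mutase) was lower by 0.46 on the log2 scale, with -0.39 in pupae and -0.54 in larvae. Tpi (triose phosphate isomerase) had -0.34, with -0.36 in pupae and -0.32 in larvae. Gapdh2 (-0.37) and the kinase gene Pgk (-0.37) fell too. Leaving out 1 library gave 8 to 9 calls for the vacuolar ATPase and 6 to 8 for glycolysis.

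**Figure D3:**
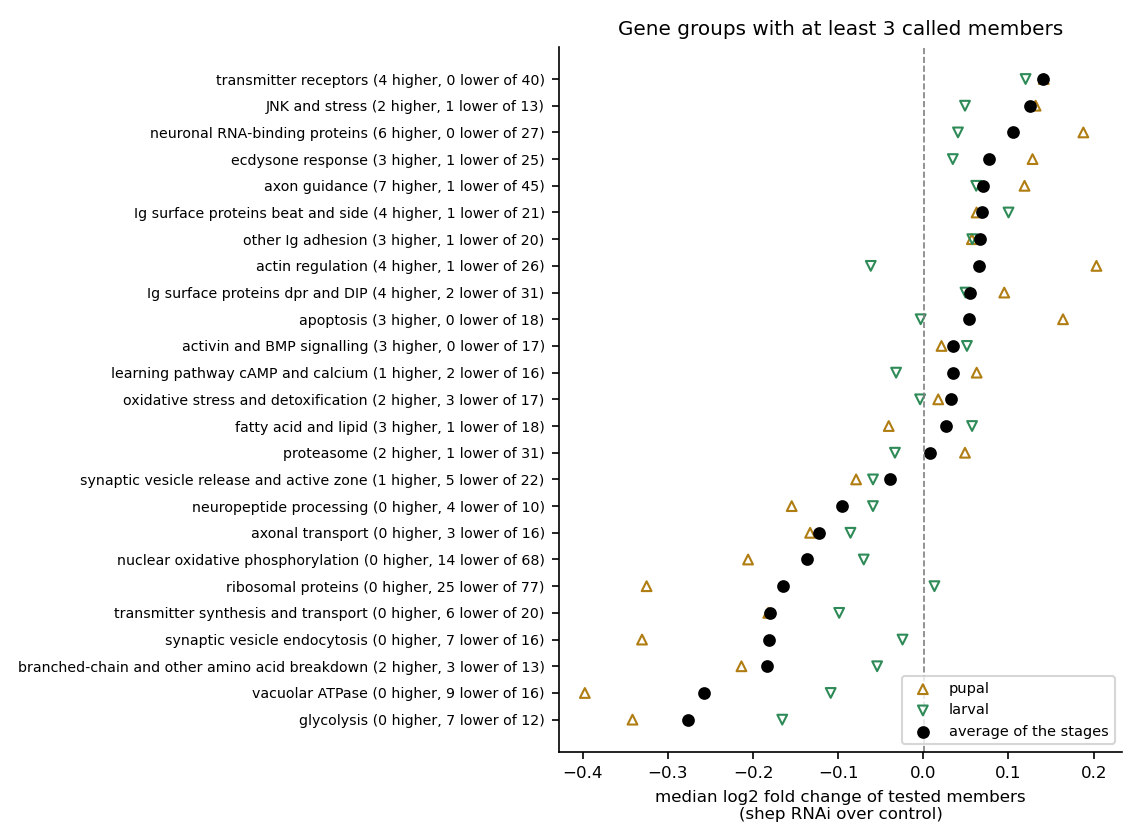
Median log2 fold change of the tested members (x axis) of the 25 groups with at least 3 called members, averaged (black) and in pupae and larvae (open triangles), with the dashed line at the median of all tested genes. Glycolysis and vacuolar ATPase genes lie lowest at -0.28 and -0.26, and ribosomal protein genes have -0.32 in pupae and 0.01 in larvae.

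Some genes of the mitochondrial respiratory chain and of the ribosome fell, and most members of both lists did not pass the test. Of 68 nuclear genes of oxidative phosphorylation 14 fell and 0 rose (20.6% called, against 7.23% of all tested genes). Their median was -0.14, with -0.21 in pupae and -0.07 in larvae. blw, which encodes the alpha subunit of ATP synthase, had 330, 367 and 341 CPM in pupal RNAi and 156, 146 and 149 CPM in larval RNAi libraries. Its controls had 738, 530 and 558 CPM in pupae and 224, 183 and 174 CPM in larvae, without overlap (-0.59, SE 0.08, adjusted p = 5.77e-05). The complex III gene UQCR-C1 (-0.36) and the complex I genes ND-20 (-0.39) and ND-42 (-0.38) fell too. The count was 9 without larval RNAi replicate 2 and 7 with the trend with exonic length removed. Of 77 ribosomal protein genes 25 fell and 0 rose (32.5% called), but only 2 of the 25 passed an unadjusted p of 0.05 at both stages. Their median was -0.32 in pupae and 0.01 in larvae, and 7 differed between stages. RpL41 (-0.43), RpL28 (-0.34), RpL24 (-0.40) and RpL17 (-0.28) had the smallest p values. Leaving out larval RNAi replicate 2, pupal RNAi replicate 1 or pupal control replicate 3 gave 12, 15 or 16 calls in place of 25, and there were 8 with the length trend removed.

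Genes of the mitochondrial genome had another pattern. Of 13 tested, 2 rose (15.4% called, against 7.23% of all tested genes), mt:ND2 (0.48, adjusted p = 0.00574) and mt:ATPase6 (0.27, adjusted p = 0.0206). Their values were 0.24 and 0.01 in pupae and 0.72 and 0.53 in larvae. mt:ATPase6 lost its call without pupal RNAi replicate 3, larval RNAi replicate 3 or pupal control replicate 3 (highest adjusted p 0.0740), and the list had 4 calls without pupal RNAi replicate 1. Larval RNAi libraries had 1.37% to 1.57% of their counts from the mitochondrial genome, against 1.17% to 1.32% for larval controls. In pupae it was 1.53% to 2.54% with RNAi and 2.36% to 2.78% in controls, so the ranges overlapped there and not in larvae.

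The called presynaptic genes were lower except for Frq2, and the 4 called receptor genes were higher. Of 22 genes of vesicle release and active zones 5 fell and 1 rose (27.3% called, against 7.23% of all tested genes). The list median was only -0.04, with -0.08 in pupae and -0.06 in larvae, and 8 members had values above 0 and 14 below. Rop, the Munc18 gene needed for vesicle fusion, had 650, 708 and 728 CPM in pupal RNAi and 40.9, 44.3 and 40.7 CPM in larval RNAi libraries. Controls had 1335, 1224 and 1196 CPM in pupae and 49.4, 51.2 and 44.3 CPM in larvae, a change of -0.53 (SE 0.06, adjusted p = 9.65e-06). Its groups did not overlap, though in larvae the nearest libraries were both at 44.3 CPM. The NSF gene comt (-0.42) and the SNARE gene Snap25 (-0.32) fell too, and the calcium sensor gene Frq2 (0.30) rose. Of 16 vesicle endocytosis genes 7 fell and 0 rose (43.8% called), with a median of -0.18. They included the adaptor gene AP-2mu (-0.46), the endophilin genes EndoB (-0.51) and EndoA (-0.32) and the dynamin gene shi (-0.31). In pupae that median was -0.33, and in larvae it was -0.02.

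Of 20 genes of transmitter synthesis and transport 6 fell and 0 rose (30.0% called), with a median of -0.18. Gad1, the GABA-synthesising enzyme gene, had 995, 974 and 983 CPM in pupal RNAi libraries, against 1574, 1559 and 1433 CPM in pupal controls. In larvae it had 28.6, 28.5 and 28.5 CPM with RNAi, against 29.3, 40.7 and 40.1 CPM in controls, again without overlap (-0.49, SE 0.07, adjusted p = 0.000117). The acetylcholine genes ChAT (-0.43) and VAChT (-0.35) and the glutamate transporter gene VGlut (-0.32) had larval values of -0.04, -0.12 and 0.01, so their averages rested on the pupal values. ChAT and VAChT share 606 exon bases on the same strand. Of 40 transmitter receptor genes 4 rose and 0 fell, with a median of 0.14, a share called that was near the 7.23% of all tested genes. These were the nicotinic receptor genes nAChRalpha1 (0.39) and nAChRalpha5 (0.31) and the serotonin receptor genes 5-HT1A (0.26) and 5-HT7 (0.31). nAChRalpha1 was called in every fit without 1 library, and the other 3 lost their calls in 5 to 8 of the 12 (highest adjusted p 0.142). The list had 1 call without pupal RNAi replicate 1, larval RNAi replicate 1 or larval control replicate 1, 2 without larval RNAi replicate 2 or 3 or pupal control replicate 1, and 10 and 7 without pupal control replicate 2 and larval control replicate 3. The potassium channel genes eag (0.26) and Shawl (0.30) rose among 23 ion channel genes (8.70% called, also near the share of all tested genes).

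Genes that process neuropeptides were among the falls. Of 10 tested 4 fell and 0 rose (40.0% called), with a median of -0.10. Pal2, which encodes the lyase of the peptide amidation step, had 355, 359 and 394 CPM in pupal RNAi and 38.3, 37.3 and 42.4 CPM in larval RNAi libraries. Controls had 567, 628 and 576 CPM in pupae and 44.4, 53.4 and 55.4 CPM in larvae, a change of -0.53 (SE 0.06, adjusted p = 1.38e-05) without overlap. 7B2, which encodes the helper protein of the prohormone convertase, changed by -0.47 (-0.55 in pupae and -0.39 in larvae; adjusted p = 4.19e-05). amon (-0.24), the convertase gene itself, and IA-2 (-0.27), a gene of dense core vesicles, fell too, though IA-2 lost its call in 9 of the 12 fits without 1 library (highest adjusted p 0.118). Among 18 neuropeptide genes 1 fell, Nplp1, and 0 rose by edgeR (5.56% called, against 7.23% of all tested genes). The list median was -0.11, with -0.48 in pupae and 0.37 in larvae.

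In each of the 4 surface and adhesion lists more members were called higher than lower, by small amounts, and that difference was not tested. Of 45 axon guidance genes 7 rose and 1 fell (17.8% called, against 7.23% of all tested genes), with a median of 0.07. Fas3 (0.34), which encodes a homophilic adhesion protein, trn (0.24) and Con (0.25), of leucine-rich repeat proteins, and the guidance cue gene NetA (0.41) had the smallest p values. Fas3, trn and Con did not overlap at either stage, and NetA was not called in the additive model (adjusted p = 0.0725). Of 31 dpr and DIP genes, whose products pair at synapses, 4 rose and 2 fell (19.4% called), with dpr15 (0.47) and dpr13 (0.28) higher and DIP-epsilon (-0.42) and dpr7 (-0.21) lower. Of 21 beat and side genes, which encode guidance proteins, 4 rose and 1 fell (23.8% called), with beat-Va (0.31) kept in every fit without 1 library. side (0.21), beat-Vb (0.33) and side-VII (0.17) were lost in 4, 7 and 11 of those 12 fits and dpr7 in 8. Of 20 other immunoglobulin adhesion genes 3 rose, Lac (0.49), rst (0.39) and kirre (0.24), and Nrx-IV (-0.19) fell (20.0% called), the last lost in 9 of 12. With the trend with exonic length removed, axon guidance genes had 5 higher and 2 lower calls, dpr and DIP genes 2 and 1, beat and side genes 2 and 1, and the other immunoglobulin genes 3 and 0. The axon guidance count was 5 without pupal RNAi replicate 1, larval RNAi replicate 2 or 3 or larval control replicate 3, and 4 without pupal control replicate 3. For the dpr and DIP list it was 3 without larval RNAi replicate 1 or 2 or pupal control replicate 1 or 3. The 5 beat and side calls became 1 without larval RNAi replicate 2, and 2 without pupal RNAi replicate 1, pupal control replicate 1 or 3 or larval control replicate 2. They became 3 without pupal RNAi replicate 2 or 3, larval RNAi replicate 3 or larval control replicate 1 or 3.

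Among 17 genes of activin and BMP signalling, 3 rose and 0 fell (17.6% called). Beside daw, the ligand gene mav rose (0.60, SE 0.08, adjusted p = 6.89e-05). It had 71.9, 58.5 and 67.8 CPM in pupal RNAi and 29.4, 35.2 and 25.4 CPM in larval RNAi libraries, against 30.3, 37.3 and 34.8 CPM in pupal control and 23.2, 27.9 and 24.6 CPM in larval control libraries. The groups overlapped in larvae. shn (0.30, adjusted p = 0.00781), which encodes a transcription factor of the BMP pathway, had 0.24 in pupae and 0.35 in larvae.

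The 6 called genes for neuronal RNA-binding proteins were higher, and called cytoskeletal genes went both ways. Of 27 neuronal RNA-binding protein genes 6 rose and 0 fell (22.2% called, against 7.23% of all tested genes), with a median of 0.10, and shep was not on that list. They included Fmr1 (0.31), the fragile X gene, bru1 (0.28), Hrb98DE (0.26) and brat (0.29), a translational repressor gene. The first 3 did not overlap at either stage, and brat lost its call in 5 of 12 fits without 1 library (highest adjusted p 0.0991). The count was 3 without larval RNAi replicate 2 or 3 or pupal control replicate 1, and 3 with the length trend removed. Of 26 actin genes 4 rose and 1, dachs, fell (19.2% called), and with the length trend removed 2 were called higher and 1 lower. Act5C (0.40), Tm1 (0.24) and the profilin gene chic (0.31) were higher on average. The actin list median was 0.20 in pupae and -0.06 in larvae. Of the 4 actin rises 0 passed an unadjusted p of 0.05 at both stages, whereas dachs did. The list had 3 calls without pupal RNAi replicate 1 or 2 or larval RNAi replicate 2 or 3. chic was lost in 5 of the 12 fits. Of 16 axonal transport genes 3 fell and 0 rose (18.8% called), Aplip1 (-0.21), Miro (-0.23) and Klp64D (-0.29). Of these 3 falls 0 passed an unadjusted p of 0.05 at both stages. The axonal transport list median was -0.13 in pupae and -0.09 in larvae. None of these 3 was called without larval RNAi replicate 2. Of the 3, 1 was called without pupal RNAi replicate 1 or 2, larval RNAi replicate 1 or pupal control replicate 3.

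Metabolic and stress genes were mixed. Of 17 genes of oxidative stress and detoxification, 2 rose and 3 fell (29.4% called, against 7.23% of all tested genes). Atox1, the copper chaperone gene, had 148, 138 and 148 CPM in pupal RNAi and 5.18, 7.51 and 5.71 CPM in larval RNAi libraries, against 199, 217 and 209 CPM in pupal control and 9.26, 9.69 and 10.5 CPM in larval control libraries (-0.61, SE 0.08, adjusted p = 2.35e-05). It stood apart at both stages. Sod1 (-0.29), the superoxide dismutase gene, was lower, and Cat (0.36), the catalase gene, and cnc (0.23), of the oxidative stress factor, were higher. Of 18 lipid genes (22.2% called) FASN1 (0.34), pdgy (0.76) and ACC (0.23), which make or activate fatty acids, rose. Desat1 (-0.29), which desaturates them, fell. pdgy was lost without larval RNAi replicate 1 (adjusted p = 0.0546), when the list had 2 calls, and ACC in 5 of 12 fits. Of 13 amino acid breakdown genes (38.5% called) 3 fell, P5CDh1 (-0.25), Got1 (-0.38) and Cth (-0.54). Cth lost its call in 8 of 12 fits without 1 library (highest edgeR adjusted p 0.140) and with the length trend removed. BckdhB (0.61) and Aasdh (0.50) rose on average but had larval values of -0.16 and -0.02, and were lost in 2 and 3 of 12 fits. That list had 3 calls without pupal RNAi replicate 1 or larval RNAi replicate 1 or 2.

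Some lists held few or 0 calls. Of 34 cell cycle genes (2.94% called, against 7.23% of all tested genes) 1 fell, RnrL (-0.55), which was lost in 4 of 12 fits. The list had 0 calls without pupal RNAi replicate 1 or pupal control replicate 1 and 2 without larval RNAi replicate 1 or pupal control replicate 2. Of 22 insulator genes and known partners of shep the only one called was shep itself (4.55% called). Of 17 insulin and TOR genes 0 passed edgeR's test, and DESeq2 and limma-voom called 0 as well. Unadjusted p fell under 0.05 for 1 higher and 1 lower member. The gene with the smallest p there was gig (-0.16, adjusted p = 0.125). Of 12 microtubule genes 0 passed, with the same unadjusted counts and 0 calls by those tools. Of 17 temporal identity genes (11.8% called) br (0.46) and Eip93F (0.25), both of the ecdysone response, rose, with larval values of 0.14 and -0.01. Of these 2, 1 was called without pupal RNAi replicate 1, larval RNAi replicate 2 or pupal control replicate 1.

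Markers of other cells were checked, since the libraries came from sorted tissue. By edgeR 0 markers were called for neurons (of 7 tested), glia (of 8), fat body (of 1), muscle (of 8), neuroblasts (of 6), photoreceptors (of 4), and epidermis and trachea (of 3). At an unadjusted p under 0.05, 1 neuron marker was higher (elav) and 1 lower (nSyb), 1 glial marker was lower and 1 muscle marker was higher. DESeq2, run without a filter on low counts, called 1 neuron marker, elav, and limma-voom 0. edgeR without that filter called the glial gene Eaat1 (adjusted p = 0.0179) and the muscle gene sls (adjusted p = 0.00718). Of 3 hemocyte markers 1 fell, the collagen gene Col4a1 (-1.81), at 5.97 CPM or less in every library. It lost its call without larval RNAi replicate 2 or pupal control replicate 1 (highest adjusted p 0.0530). The 9 glial markers summed to 638 to 830 CPM in pupal RNAi and 856 to 942 CPM in pupal control libraries, and the 7 hemocyte markers, with He at 0 in both, to 233 to 254 CPM with RNAi and 279.8 to 319.7 CPM in controls. In larvae glial markers summed to 188 to 202 CPM with RNAi and 157 to 201 CPM in controls. The 9 epidermis and trachea markers summed to 3.17 to 4.74 CPM in pupal RNAi and 1.71 to 2.27 CPM in pupal control libraries, with Cpr49Ah, Cpr47Ea and verm at 0 in both. The 12 photoreceptor markers summed to 178 to 187 CPM in larval RNAi and 166 to 172 CPM in larval control libraries, with Arr2 and Rh6 at 0 in both. The sums of the other lists overlapped between RNAi and control at each stage. The part of these differences in the averaged calls was not tested. In bulk libraries fewer cells of a type and less RNA per cell cannot be told apart.

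Called genes differed in length by direction. The median exonic length was 4384 bases for called higher genes and 1997 for called lower genes, against 2198 over all tested genes. With genes split by length into 5 bins, the longest bin had 158 called higher (9.12%) and 36 lower (2.08%), and in the shortest bin 19 were higher (1.1%) and 63 lower (3.64%). For each library, the deviation of log2 level from the stage mean of each gene was regressed on log2 length. The slope ran from 0.011 to 0.027 in pupal RNAi and from -0.035 to -0.003 in pupal control libraries. In larvae it ran from -0.001 to 0.018 with RNAi and from -0.025 to -0.001 in controls. With that trend removed in each library, 469 genes were called, 242 higher and 227 lower, with median lengths of 3252 and 2638 bases, and 433 of them were among the 635. Lower calls then numbered 9 for vacuolar ATPase genes, 6 in place of 7 for glycolysis and 7 in place of 6 for transmitter synthesis, and higher calls 3 for apoptosis. Beat and side genes had 3 calls, neuronal RNA-binding genes 3 and ribosomal protein genes 8. Of the 24 largest changes, Spindly alone lost its call (adjusted p = 0.0546). Other named genes that lost theirs included eag, Tm1, cnc, ACC, brat, side, dpr7 and nAChRalpha5.

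**Figure D4:**
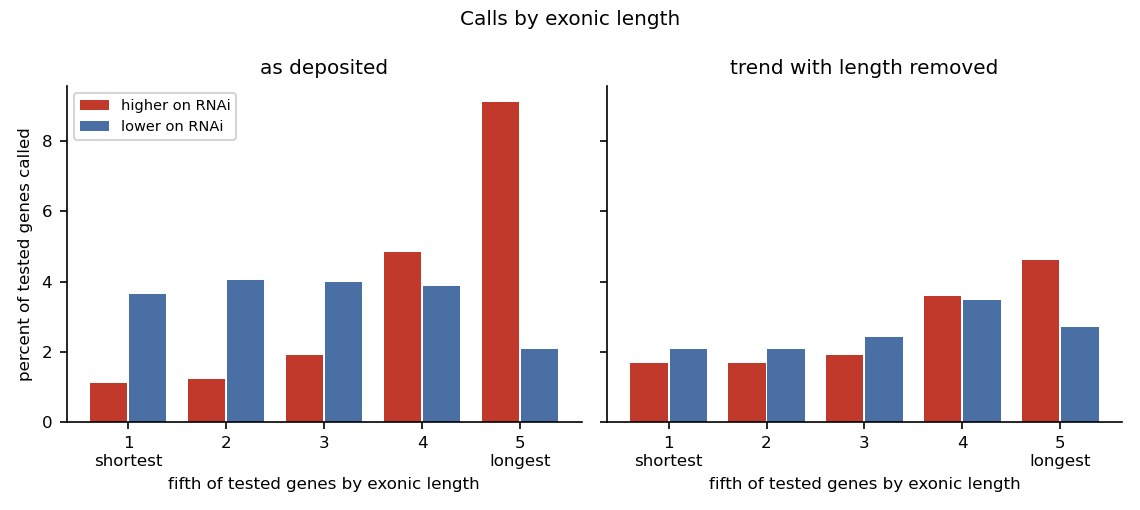
Percent of tested genes called higher (red) and lower (blue) on shep RNAi (y axis) in 5 bins of genes by exonic length (x axis), from the deposited counts (left) and with the length trend of each library removed (right). The share called higher in the longest bin is 9.12% on the left and 4.62% on the right.

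Genes called in neurons were then looked up in BG3 cells, whose libraries the contrast did not use. Of the 489 called genes that were testable there, 88 were called in the same direction (18%) and 1 in the opposite one. Over the 6415 genes tested in both, 5.39% were called in BG3 cells, and in that comparison 369 of 6816 genes were called in all (5.41%; 3.35% higher and 2.07% lower). That 5.39% was not matched for gene length or level. The median BG3 log2 fold change was -0.09 in the shortest length bin and 0.06 in the longest, against -0.04 and 0.06 in the neuron average. Neuron calls were also more frequent at high levels. With genes split by mean CPM into 5 bins, 8.48% were called higher and 6.60% lower in the top bin, against 1.08% and 0.34% in the lowest. Rises were shared by 55 of 216 genes and falls by 33 of 273. The count of 88 became 45 when pupal RNAi replicate 1 was left out, 55 or 49 for larval RNAi replicate 2 or 3, and 49 or 55 for pupal control replicate 1 or 3. Without 1 BG3 library it was 48 (GFP replicate 1), 57 (GFP replicate 3), 35, 44 and 40 (shep dsRNA replicates 1, 2 and 3). The BG3 libraries with shep dsRNA were all deeper, at 3651214 to 5081610 counts, than those with GFP dsRNA, at 3141100 to 3203392 counts.

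The shared falls beside shep included Serinc, with 64.5 ± 4.48 CPM in shep dsRNA cells and 113 ± 9.18 CPM in GFP dsRNA cells (SD, n = 3 each). Its log2 fold change there was -0.81 (edgeR adjusted p = 2.00e-05), between its pupal (-1.01) and larval (-0.31) values. Rop had -0.53 (edgeR adjusted p = 0.0161) in BG3 cells. Its neuron average was also -0.53, but neither stage had that value, with -0.85 in pupae and -0.20 in larvae. Other shared falls were of EndoB (-0.40), VhaSFD (-0.41), RpL24 (-0.83), the desaturase gene Desat1 (-0.45) and Pgk (-0.45). In neurons EndoB had -0.85 in pupae and -0.17 in larvae, and VhaSFD had -0.71 and -0.10. Among shared rises, CrebA had 354 ± 19.2 CPM in shep dsRNA cells and 262 ± 8.11 CPM in GFP dsRNA cells (0.43, adjusted p = 0.000487). kirre (0.55), which encodes an adhesion protein of the immunoglobulin family, rose too, as did scyl (0.41), an inhibitor gene of TOR signalling. puc (0.65), a JNK phosphatase gene, was also called in both, but in neurons (0.25, adjusted p = 0.0485) it lost its call in 7 of 12 fits without 1 library (highest adjusted p 0.181) and with RLE scaling, DESeq2, limma-voom, the additive model or the length trend removed. The genes named in this comparison were partly chosen after their values were seen.

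**Figure D5:**
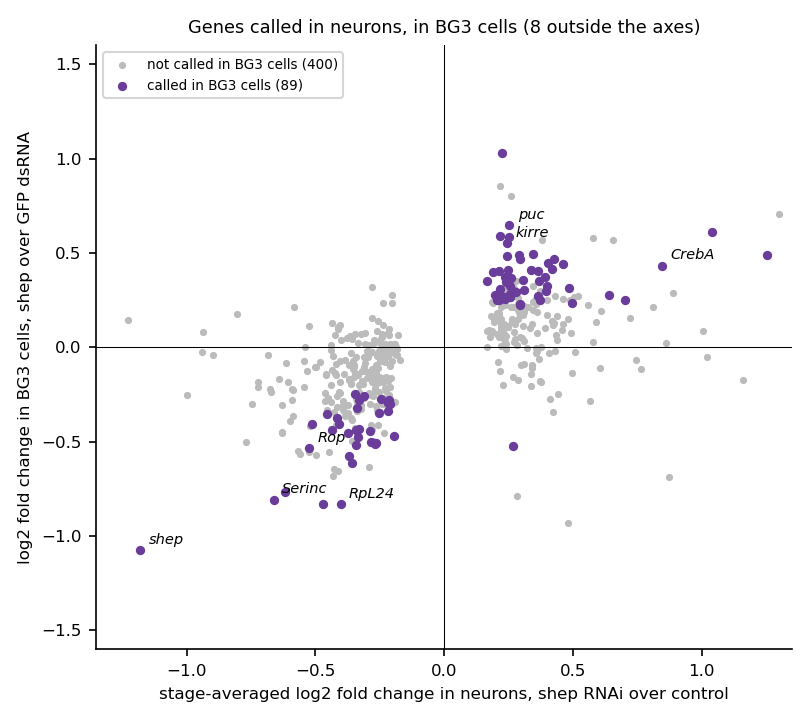
Stage-averaged log2 fold change in neurons (x axis) and log2 fold change in BG3 cells (y axis) for the 489 called genes testable in both, with genes called in BG3 cells in purple and 8 genes outside the axes. Of the 89 purple genes, 88 lie in the lower left or upper right quadrant.

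Averages can hide different responses, so the pupal minus larval difference was tested for every gene. It passed for 32 of 8784 genes (0.364%), and 25 of the 635 called genes were among them, 15 with the same sign at both stages. CG34377 had the smallest p. It had 51.7, 47.5 and 50.6 CPM in pupal RNAi libraries, against 19.6, 23.8 and 27.2 CPM in pupal controls. In larvae it had 266, 286 and 246 CPM with RNAi, against 281, 281 and 270.2 CPM in controls, so the groups overlapped only there. sn, the fascin gene of actin bundles, had a log2 fold change of 0.63 in pupae and -0.20 in larvae, and its average of 0.21 was lost in 9 of 12 fits without 1 library. Opposite signs were found in 19 of the 635 genes.

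The threshold lay at small changes of well expressed genes. The last genes inside it were CG5071 (0.31), the synaptic growth gene nwk (-0.18) and the calcineurin gene Pp2B-14D (-0.19). The first outside it were the glutamate receptor gene GluRIB (0.20), CG17698 (-0.22) and CG11000 (0.27). Their adjusted p lay between 0.0497 and 0.0502.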

How the data were processed

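RNA was sequenced in 18 libraries, of which the 12 neuron libraries entered the main contrast. The deposited values were raw, whole-number counts for each gene. Per the submitters' processing notes, they were made with cutadapt 1.10, HISAT2 2.0.4 and featureCounts 1.5.0-p3 on dm6. Strand setting, annotation release and treatment of multi-mapping reads are not given in the sources used here. Symbols and positions were taken from an Ensembl annotation. Counts were fitted in R 4.3.3 with edgeR 4.0.16 (filterByExpr, TMM, robust quasi-likelihood, 4 group means, 8 residual degrees of freedom). Calls required a 2-sided Benjamini-Hochberg adjusted p under 0.05. BG3 libraries were fitted separately. DESeq2 1.42.0, run with no filter on low counts beyond its own, and limma 3.58.1 (voom) were alternatives, beside other filters and scalings, a replicate block, an additive model, removal of a lowess trend with exonic length (span 0.3) and leaving out each library. The scripts were tested on simulated data.

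The comparison and gene lists were chosen with earlier results of these data known. Named genes were shep, the 12 largest rises and 12 largest falls with a mean of at least 5 CPM and no overlap at either stage, up to 4 called members with the smallest p for each list, the 6 called genes with the smallest p for the stage difference, the 3 genes on each side of the threshold, and 7 check genes. Other genes were named after their values were seen.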

Additional observations from a re-analysis of the deposited data

Results flagged for a closer look

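Among the named genes, 16 responded differently in pupae and larvae by the test of the difference itself (edgeR, adjusted over 8784 genes). The pupal log2 fold change was the higher in 4 of them, by 1.14 in CG34377 (adjusted p = 8.72e-05), 0.82 in sn (0.00384), 0.65 in CG15725 (0.0162) and 1.53 in BckdhB (0.0201). In the other 12 it was the lower. The difference was -0.77 in ChAT and -0.70 in Serinc (both 0.00384), -0.78 in CG6330 (0.00940), -0.61 in RpL17 (0.0113), -0.61 in RpL28, -0.58 in RpL41 and -0.66 in VGlut (each 0.0117). It was -0.65 in Rop (0.0130), -0.67 in eIF3i (0.0201), -0.61 in VhaSFD (0.0235), -0.68 in EndoB (0.0280) and -0.49 in VhaAC45RP (0.0459). Groups held 3 libraries, too few for the check of single outlying libraries.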

How the results depend on the processing

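The averaged calls (635) numbered 601 with RLE scaling, 686 with DESeq2 and no filter on low counts (2 choices changed at once, as in every DESeq2 value here), 554 with limma-voom, 437 in an additive model and 741 with edgeR and no filter, where 41.4% were higher, against 51.0%. They were 212 at an adjusted p under 0.01 (38.2% higher), 31 at 2-fold or more and 258 with an unadjusted p under 0.05 and the same sign at each stage. Leaving out 1 library gave 371 to 803. Pupal calls (672) were 269 at 0.01, 68 at 2-fold and 319 to 895 without 1 library. Larval calls (32) were 76 without a filter, 49 with all 18 libraries in 1 fit, 15 at 0.01, 12 at 2-fold and 10 to 52 without 1 library. The stage difference (32) gave 106 with DESeq2 and no filter, 102 with edgeR and no filter, 5 at 0.01, 7 at 2-fold and 13 to 89 without 1 library. BG3 calls (369) were 245 with DESeq2 and no filter, 115 with all 18 libraries, 118 at 0.01, 15 at 2-fold and 133 to 466 without 1 library. Calls shared with BG3 (88) were 52 in the additive model, 41 with all 18 libraries and 35 to 119 without 1 library.

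Same-numbered libraries did not deviate together (3 of 18 pairs over a correlation of 0.1). With the replicate block the averaged calls were 623, of which 585 were shared, and BG3 calls 616. With the block within stage the averaged calls were 438 and those for the stage difference 9.

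Among the named genes, 4 changed sign, of which 0 were called. roX1 had -0.00754 without a filter, -0.0184 with the length trend removed and -0.11 to 0.18 without 1 library. repo had 0.10 in the additive model. Without 1 library Dcr-2 ran from -0.0860 to 0.0211, and pio from -0.92 to 2.29. shep kept its call in every setting. The causes of these shifts were not tested. Depth limits genes near 1 CPM, where a library holds few counts.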
